A study of Mus musculus with 2 samples.

Results

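The genes of the cytosolic ribosome were described in TUBO, a mouse mammary carcinoma line established from a tumour driven by a rat Her2/neu transgene. Members were the rows of the deposited table whose symbol is Rpl or Rps with a number and an optional ending, together with Rpsa, Rplp0, Rplp1 and Rplp2. Kinases of the Rps6k family and names containing -ps, which mark pseudogenes, were left out. The rule used names and no measured value. It found 86 of 31017 rows. Of these, 77 encode proteins of the ribosome itself and are called the core, 31 of the small subunit and 46 of the large subunit. The other 9 were Rpl3l, Rpl7l1, Rpl10l, Rpl22l1, Rpl36al, Rpl39l, Rps27l and Rps27rt, which are relatives of core genes, and Rps19bp1, which encodes a binding partner of RPS19 and no ribosomal protein. Fau and Rack1 encode proteins of the ribosome under names the rule does not reach, and their values are given beside those of the members. Rpl6l, Rpl37rt, Rps4l, Rps3a2 and Rps3a3 also match the rule, but there was no row under these names.

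The samples formed 1 group of 2 libraries from untreated TUBO cells on plastic, grown with serum, so no condition was compared with another. TUBO is 1 line, and the labels do not say whether the libraries came from separate cultures. Differences between them therefore measure only the spread between these libraries, which may be technical. A stranded mRNA kit was used. The libraries held 35453278 and 34098259 counts. All 5 epithelial markers were detected, from 333 TPM for Erbb2 to 2062 TPM for Krt18, and none of 10 markers of blood, fibroblast, endothelial, fat or muscle cells reached 1 CPM in both libraries. Of those 10, Ptprc, Cd3e, Col1a2, Dcn, Cdh5 and Hbb-bs had 0 counts, and the highest was Col1a1 with 37 and 18. Whether reads of the rat transgene were counted in the Erbb2 row was not tested.

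A cytosolic ribosome is built from ribosomal RNAs and 1 copy of most ribosomal proteins, with the acidic stalk proteins P1 and P2 present in more copies. The small subunit holds the mRNA and its decoding site, and the large subunit holds the site where peptide bonds form and the tunnel through which the new chain leaves. Most mRNAs of ribosomal proteins begin with an unbroken run of C and T, the terminal oligopyrimidine (TOP) tract, through which growth signals relayed by mTOR and LARP1 set how strongly they are translated. Ribosomal protein genes have given rise to many processed pseudogenes, which are copies of the spliced mRNA placed elsewhere in the genome.

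The start sites of the core genes are shown first because they carry a feature the rule did not use. RefSeq promoters (GRCm38.p6) matched 66 of the 86 members and 57 of the 77 core genes. The stretches below run from 45 bases before the annotated start to the first 15 transcribed bases, with the longest run of C and T in capitals. They are ordered by transcript level in TUBO cells, from Rpl7a down to Rpl13a, and were chosen among genes with such a run to span that range.
Rpl7a: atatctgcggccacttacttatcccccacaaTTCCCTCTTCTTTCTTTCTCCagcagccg
Rpl28: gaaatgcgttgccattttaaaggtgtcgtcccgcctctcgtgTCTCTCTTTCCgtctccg
Rplp2: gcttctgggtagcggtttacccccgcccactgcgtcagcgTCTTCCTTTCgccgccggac
Rpl35: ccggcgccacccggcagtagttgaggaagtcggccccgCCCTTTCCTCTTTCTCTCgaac
Rps6: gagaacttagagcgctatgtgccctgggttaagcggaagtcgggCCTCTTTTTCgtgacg
Rpl15: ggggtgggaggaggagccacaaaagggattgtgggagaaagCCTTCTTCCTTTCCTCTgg
Rpl13a: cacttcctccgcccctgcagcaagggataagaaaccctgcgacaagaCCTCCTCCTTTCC
These lie at chr2:26910762-26910821 on the plus strand for Rpl7a, chr7:4792920-4792979 on the plus strand for Rpl28, chr7:141447606-141447665 on the plus strand for Rplp2 and chr2:39005117-39005176 on the minus strand for Rpl35. Those of Rps6 (chr4:86857353-86857412), Rpl15 (chr14:18270972-18271031) and Rpl13a (chr7:45128731-45128790) are on the minus strand.

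The longest of these runs, 21 bases in Rpl7a, and those of 18 bases in Rpl35 and 17 in Rpl15 each contain the annotated start. The run in Rpl13a begins just after it and reaches the end of the stretch shown, so its 13 bases are a minimum. A run of 8 or more C or T on the transcribed strand, within 30 bases before to 20 after the start, was found in 29 of the 57 core genes (50.9%) and in 22.9% of all 27025 genes with a RefSeq promoter. Among genes detected in TUBO cells the share was 22.8%. Runs of 8 or more A or G in the same window went the other way, with 7 core genes (12.3%) against 24.6% of all genes. A window rich in C and T has fewer A and G, so this count does not separate runs from base composition. The annotated start lay inside a run of 8 or more C or T in 17 core genes (29.8%) against 4.59% of all genes. A stricter form, a C at the start followed by 4 or more C or T, was found in 13 core genes (22.8%) against 3.01% of all genes. Annotated starts can miss the true first base, so these are counts of letters in the reference, and no transcript start was measured here.

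**Figure D1:**
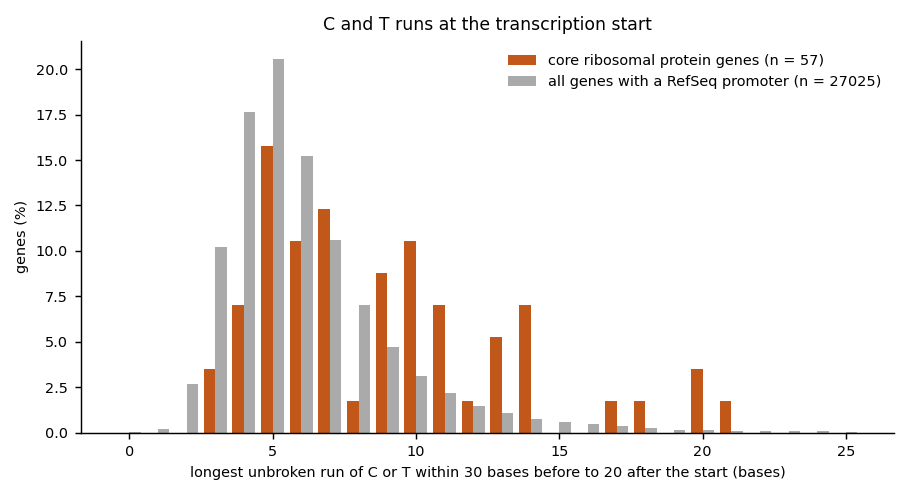
Share of genes (%) by the longest unbroken run of C or T near the annotated transcription start (bases), for 57 core ribosomal protein genes in orange and 27025 genes with a RefSeq promoter in grey. The median longest run was 8 bases in the core genes and 5 in all genes, and 29 core genes lie at 8 or more.

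Shorter words showed the same strand bias. CTTTCC stood in this window in 10 core genes (17.5%) on the transcribed strand and in 1 (1.75%) on the opposite strand, against 2.88% and 2.47% of all genes. CTTTTC stood in 6 core genes (10.5%) on the transcribed strand and in 2 (3.51%) on the opposite strand, against 2.14% and 1.97%. Over the whole 300 bases and on both strands, CCGGAAGT, a site of ETS-family factors, was found in 11 core genes (19.3%), against 4.31% of all genes and 9.96% of detected genes. AAGATGGC, a form of the YY1 site, was found in 5 (8.77%), against 3.19% and 5.67%. The E-box CACGTG, the palindrome bound by MYC and related factors, was found in 6 (10.5%), between the share in all genes (8.09%) and that in detected genes (12.1%). TATAAA in the 50 bases before the start was found in none of the 57 core genes, against 3.15% of all genes and 1.53% of detected genes. Some of these words overlap the runs counted above, and a match is a description of the sequence only.

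Each of the 77 core genes reached 1 CPM in both libraries, the level called detected here. CPM is the count per 1000000 counts of the library after TMM scaling. In bulk RNA the number of cells that express a gene and the RNA per cell cannot be told apart. Among the 86 members 82 were detected, against 37.7% of all rows in the table. Of the members, 68 reached 100 CPM in both libraries, all of them core genes, against 7.46% of all rows. Members held 2.41% of all counts in replicate 1 (95% Wilson interval 2.406 to 2.416%) and 2.42% in replicate 2 (2.416 to 2.427%), which covers counting error only. Without the counts of Gm26917 and Gm42418 in the total, the share was 2.699%. The median of log2(CPM + 1) over the members was 7.84 ± 0.01 (SD, n = 2), and it was 8.09 over the core genes alone.

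To compare genes with each other, counts were divided by the length of the principal coding transcript and scaled to a sum of 1000000 in each library (TPM). Core genes took 7.71% of the TPM in replicate 1 and 7.77% in replicate 2. Their median was 842 TPM, with quartiles of 612 and 1276 TPM, against a median of 30.2 TPM over all 11578 detected genes with a length. Of the 100 genes with the highest TPM, 36 were core genes, and of the 200 highest, 57. The core genes were not at 1 level: 61 of 77 lay within 2-fold of their median, and the highest, Rpl41, exceeded the lowest, Rpl13a, by 53-fold. The 53-fold range rests on Rpl13a, whose exons overlap another row on the same strand, as described below. The next lowest core gene, Rps20 at 110 TPM, owes its place to a long annotated transcript. The correlation of TPM with transcript length across the 77 genes was weak (Pearson r -0.294, Spearman rho -0.183, on log2 values, as a description of genes that share these libraries).

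**Figure D2:**
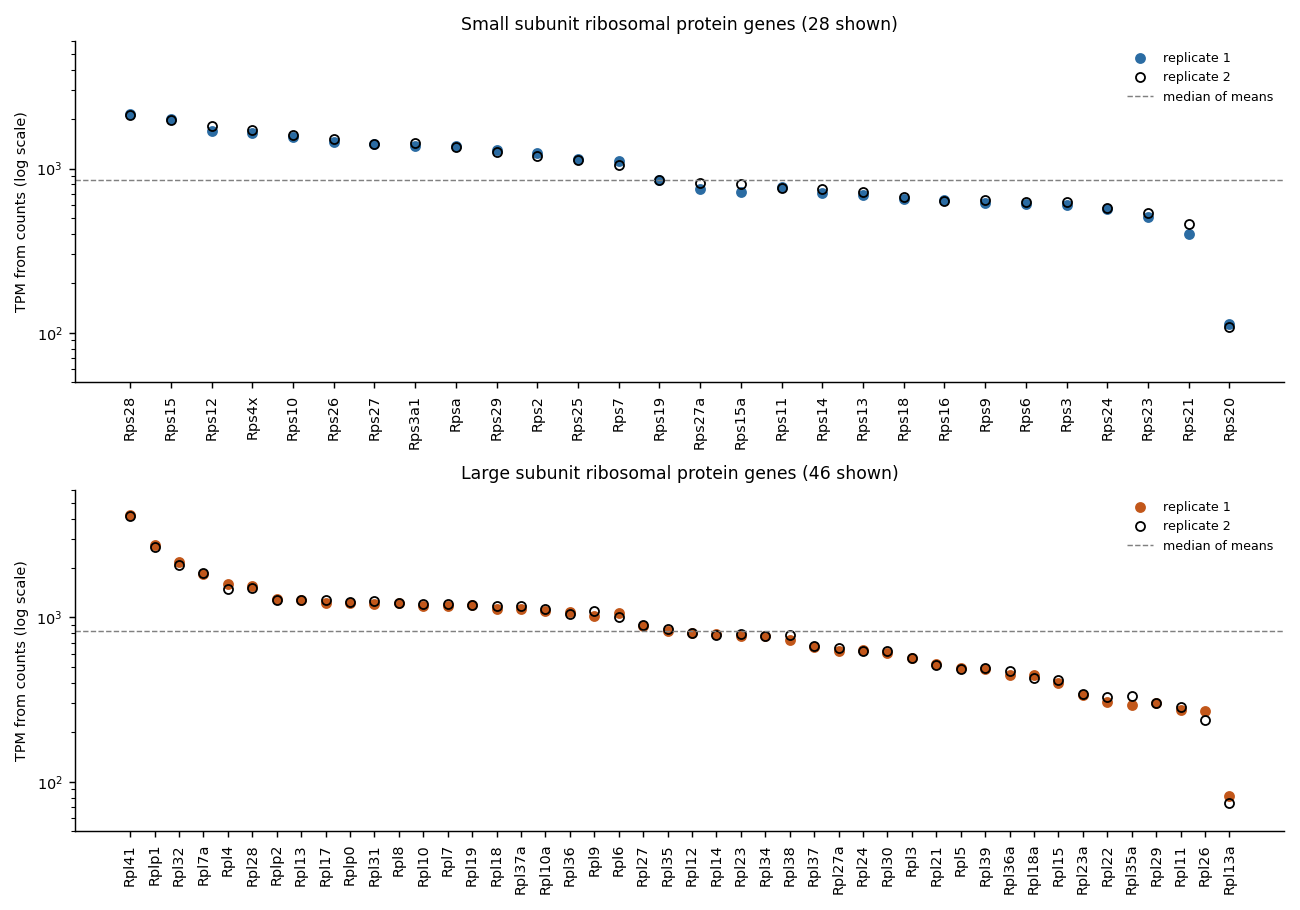
Transcript level (TPM, log scale) of each core gene of the small subunit (upper panel, 28 of 31 shown) and of the large subunit (lower panel, n = 46), ordered by mean, with replicate 1 filled, replicate 2 open and the median of the means over all genes of the subunit dashed. Rpl41 stands highest, at 4182 and 4123 TPM, and Rps20 (112 and 108 TPM) and Rpl13a (82.2 and 74.5 TPM) stand below the rest of their subunit.

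In the large subunit the highest gene was Rpl41, which encodes the shortest ribosomal protein, at 4182 and 4123 TPM in replicates 1 and 2. It lies on chromosome 10 from 128548114 to 128549305 (GRCm38), and only 78 of the 437 bases of its transcript are coding. The stalk genes followed a graded order. Rplp1, whose acidic protein helps to bind elongation factors, was at 2765 and 2703 TPM, and its partner Rplp2 was at 1302 and 1274 TPM. Rplp0, which anchors both at the base of the stalk, was at 1237 ± 9.40 TPM, and Rpl12, which binds beside it, was at 804 ± 5.34 TPM. In both libraries Rplp1 was above and Rpl12 below the other stalk genes by more than the spread between libraries, while Rplp2 and Rplp0 were close to each other.

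Further high genes of the large subunit were Rpl32 (2171 and 2099 TPM), Rpl7a (1845 and 1869 TPM) and Rpl4 (1599 and 1494 TPM), whose protein reaches into the wall of the exit tunnel. Rpl28 was at 1565 and 1508 TPM, and Rpl13 at 1274 and 1278 TPM. The 8 genes around the rim of the exit tunnel, where the signal recognition particle and chaperones dock, were spread from Rpl26 (270.3 and 237 TPM) to Rpl17 (1228 and 1275 TPM), with a median of 665 TPM. Within that rim Rpl19 (1185 TPM) and Rpl31 (1235 TPM) were near Rpl17, while Rpl22 (305 and 328 TPM) and Rpl23a (335 and 342 TPM) were near Rpl26.

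Rpl5 and Rpl11, which carry the 5S ribosomal RNA into the large subunit and, when free, bind the p53 ligase MDM2, were both below the core median. Rpl5 was at 489.9 and 489.0 TPM, and Rpl11 at 274 and 286 TPM. Other low genes were Rpl35a (294 and 331 TPM), Rpl29 (304 and 302 TPM) and Rpl15 (399 and 414 TPM). The lowest core gene was Rpl13a (chromosome 7, 45125558 to 45128761, GRCm38), whose protein also takes part in a complex that silences inflammatory mRNAs. It had 1255 and 1092 counts, or 82.2 and 74.5 TPM, and neither library came near the next lowest gene of the subunit, Rpl26.

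In the small subunit the highest was Rps28, whose protein sits where the mRNA leaves, at 2156 and 2109 TPM. Rps15, a protein of the head near the decoding site, was at 2006 and 1971 TPM. Rps12 was at 1682 and 1812 TPM, and the X-linked Rps4x was at 1636 and 1718 TPM. Rps10, near the mRNA entry, was at 1561 and 1608 TPM, and Rps26, which contacts the mRNA just upstream of the start codon, was at 1491 ± 44.2 TPM. In both libraries Rps28 and Rps15 were above the other genes named here, and Rps10 was above Rps26.

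The lowest small subunit gene was Rps20 (chromosome 4, 3831334 to 3835665), at 112 and 108 TPM. It had 6076 and 5599 counts, but its principal transcript is annotated with 3706 bases, of which 360 are coding, so its place rests on that length. Above it stood Rps21 (402 and 459.7 TPM), Rps23 (509 and 537 TPM), whose protein lies in the decoding centre, and Rps24 (574 ± 5.93 TPM). Rps3, a protein of the mRNA entry, was at 612 ± 19.9 TPM. Rps6, the substrate of the S6 kinases, was at 619 ± 11.1 TPM, and Rps9 at 632 ± 15.9 TPM. Rps3, Rps6 and Rps9 were close and kept 1 order, with 597, 611 and 621 TPM in replicate 1 and 626, 627 and 643 TPM in replicate 2. The 9 genes of the list known for mutations in Diamond-Blackfan anaemia, a failure of red cell production, covered much of the whole range, from Rpl11 to Rps10 (1585 TPM), with a median of 852 TPM.

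The subunits had nearly the same median, 852 TPM in the small and 823 TPM in the large. The difference of medians, large minus small, was -0.05 ± 0.02 on the scale of log2(TPM + 1) (SD, n = 2; -0.06 and -0.04 in the libraries). Its sign depended on how length was treated: it was 0.33 on counts not divided by length, 0.01 with the union of all exons and 0.12 in genes with under 50% of their windows shared with other genes. These data do not fix which subunit is higher.

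**Figure D3:**
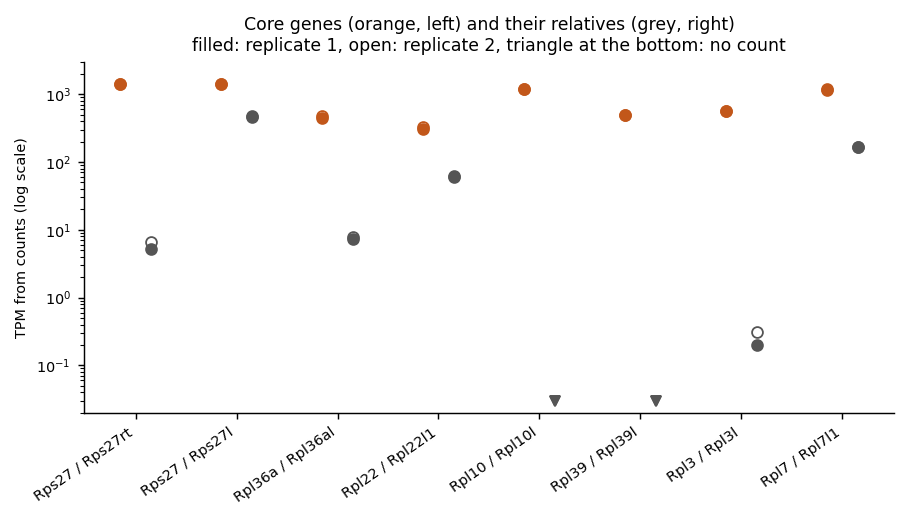
Transcript level (TPM, log scale) of core genes (orange) and of their relatives outside the core (grey) in replicate 1 (filled) and replicate 2 (open), with triangles at the lower edge for genes with 0 counts. Rps27l reached 471 TPM, and every other relative lay at 167 TPM or below.

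The relatives of core genes ran from no count to the level of the core. Rps27l, a relative of Rps27 that is known as a p53 target, had 3348 and 3370 counts, and at 471 ± 15.9 TPM (n = 2) it stood at 33.5 ± 1.09% of Rps27. Rpl7l1, whose protein acts in the assembly of the large subunit, had 3210 and 3029 counts and was at 167 ± 1.98 TPM, or 14.02 ± 0.52% of Rpl7. Rpl22l1, a relative of Rpl22, had 508 and 456 counts and was at 61.1 ± 2.88 TPM, or 19.3 ± 1.86% of Rpl22. In each of these 3 pairs the core gene was above its relative in both libraries.

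The other relatives were low. Rpl36al had 57 and 58 counts (7.66 ± 0.32 TPM), which was 1.67% of Rpl36a in each library. Rps27rt had 28 and 35 counts (5.91 ± 1.10 TPM). Rpl3l, a relative of Rpl3 known from striated muscle, had 4 and 6 counts. Rpl10l and Rpl39l, both known from the testis, had 0 counts in both libraries, which still allows 0.0846 CPM in the first library and 0.0880 CPM in the second. Rps19bp1 had 676 and 623 counts, or 54.2 ± 1.55 TPM. All 9 members outside the core had a median of 7.66 TPM.

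The start regions of Rps27 and of its relatives show how they differ as genes, with the longest C and T run again in capitals.
Rps27: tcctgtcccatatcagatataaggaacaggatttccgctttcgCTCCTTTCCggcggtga
Rps27rt: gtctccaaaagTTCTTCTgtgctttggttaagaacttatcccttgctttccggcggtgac
Rps27l: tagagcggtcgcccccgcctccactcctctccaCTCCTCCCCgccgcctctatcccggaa
They lie at chr3:90213634-90213693 on the minus strand for Rps27, chr9:114982725-114982784 on the minus strand for Rps27rt and chr9:66946041-66946100 on the plus strand for Rps27l. The run of Rps27 contains its annotated start. The coding sequences below, the first 120 bases from the start codon in the GENCODE transcripts, have each base that differs from Rps27 in capitals.
Rps27: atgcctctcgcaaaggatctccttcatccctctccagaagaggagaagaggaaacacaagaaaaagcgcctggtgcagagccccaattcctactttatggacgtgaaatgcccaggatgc
Rps27rt: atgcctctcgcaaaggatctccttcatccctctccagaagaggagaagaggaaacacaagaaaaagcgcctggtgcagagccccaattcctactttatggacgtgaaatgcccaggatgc
Rps27l: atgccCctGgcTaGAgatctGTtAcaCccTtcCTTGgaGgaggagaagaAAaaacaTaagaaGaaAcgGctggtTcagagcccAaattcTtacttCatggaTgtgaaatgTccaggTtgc
Over all 255 coding bases Rps27rt has 0 mismatches to Rps27, and Rps27l has 61 (76.1% identity). Of the 28 differences shown for Rps27l, 23 fall on the third base of a codon. Reads from the coding part of Rps27rt thus cannot be told from those of Rps27, while 22.4% of the 50-base windows of Rps27l are found in transcripts of other genes.

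The other pairs were less alike than Rps27 and Rps27rt. Coding identity was 87.9% for Rpl36a and Rpl36al, 85.3% for Rpl39 and Rpl39l, 84.8% for Rpl10 and Rpl10l and 73.4% for Rpl3 and Rpl3l. It was 66.9% for Rpl22 and Rpl22l1 and 53.8% for Rpl7 and Rpl7l1. Of the ribosomal genes under other names, Fau, which encodes a ubiquitin-like protein fused to RPS30, was at 1155 ± 20.5 TPM, and Rack1, a signalling scaffold on the small subunit, was at 1187 ± 21.4 TPM. Both were above the core median.

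Most core genes shared sequence with other genes. Every 50-base window of each principal transcript was searched for among the GENCODE M21 transcripts of every other gene. Of the 77 core genes, 76 shared at least 1 window with another gene and 76 with an annotated pseudogene. The median core gene shared 61.2% of its windows and had 9 pseudogene partners. Rpl7a had 120 pseudogene partners, Rpl29 and Rpl21 had 81 each, Rps2 had 71 and Rpl17 had 50. In 51 of 77 genes over 50% of the windows were shared. The median share was 51.3% with windows of 75 bases, 45.3% with 100 bases and 29.2% with 150 bases.

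In 6 core genes over 90% of the windows were shared. They were Rps27 (98.6%), Rpl35 (95.1%), Rpl5 (93.8%), Rps10 (92.4%), Rpl10 (92.1%) and Rps12 (90.1%). When genes at the member's own locus were left out, Rps27, Rpl10 and Rps12 kept these shares, while Rps10 shared 83.7%, Rpl5 48.5% and Rpl35 40.1%. With the same restriction 47 of the 77 core genes shared over 50% of their windows. Their levels were spread over the range of the core. Rps10 and Rps12 were among the 8 highest small subunit genes, Rps27 was at 1407 ± 1.54 TPM and Rpl10 at 1190.3 ± 21.1 TPM. Rpl35 was at the core median with 842 ± 18.1 TPM, and Rpl5 was below it.

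Copies annotated as pseudogenes hardly appear in the table. The core genes had 1090 distinct annotated pseudogene partners, of which 11 had a row, and those rows held 34 and 39 counts together. Rows with other annotations that share windows are not in this count. Among them are Rpl9-ps6 (24 and 31 counts), annotated as protein-coding, and Gm10076, described below. In all, 246 of 13443 annotated pseudogenes had a row. How reads that match several places were counted is not given in the sources used here, so counts lost by a core gene cannot be read from rows of its pseudogenes. Across the 77 core genes the share of windows and log2 TPM had a Pearson r of 0.125 and a Spearman rho of 0.0913, and 0.0304 and 0.0135 with windows of 100 bases. Genes with under 25% of windows shared had a median of 593 TPM (n = 8), those from 25 to under 50% had 774 TPM (n = 18), those from 50 to under 75% had 968 TPM (n = 24) and those with 75% or more had 1065 TPM (n = 27). The median was higher in each successive range of shared windows, while the correlations were weak.

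**Figure D4:**
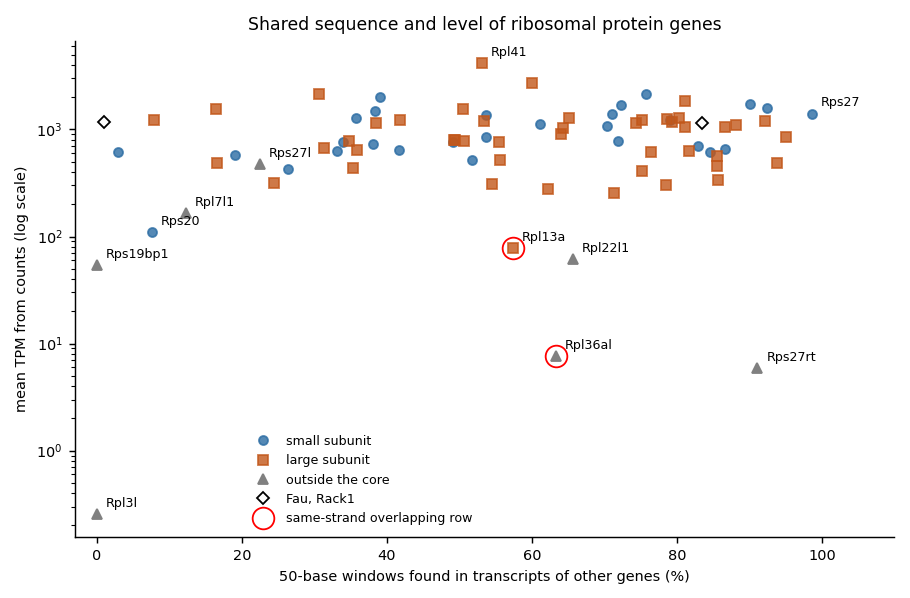
Mean transcript level (TPM, log scale) against the share of 50-base windows found in transcripts of other genes (%), for small subunit genes (circles), large subunit genes (squares), members outside the core (triangles) and Fau and Rack1 (diamonds), with 28 of 31 small subunit genes shown and 2 members at 0 counts left out. Levels show no fall towards high shares, and the 2 genes circled in red, whose exons overlap another row on the same strand, lie at 78.4 TPM or below.

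In 2 of the 86 members, Rpl13a and Rpl36al, exons overlapped those of another row on the same strand. They were at 78.4 and 7.66 TPM, against a median of 783 TPM in the other 84 members. For Rpl13a, 59.3% of 1047 exon bases also belong to Gm45713, a row with 0 counts. Its whole counts divided by the 426 bases left gave 2946 and 2563 per kilobase. Core medians were 12085 and 11880 counts per kilobase of the whole transcript. Where its reads lay was not examined, so its level on the bases left is not known. For Rpl36al, 63.1% of the exon bases also belong to Gm49383, a row with 0 counts. How the counting treated reads over such bases is not given, and its part in these low values was not tested.

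On the opposite strand 7 core genes overlapped another row, and the 3 with the most overlap were not as low. In Rpl35 68.3% of the exon bases face Wdr38, in Rpl23a 55.4% face Tlcd1 and in Rpl5 46.6% face Fam69a. These genes were at 842, 339 and 489 TPM.

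Among rows of other genes that share windows with a member, few held many counts. Gm10076, annotated as a lincRNA gene, shares 53.1% of the windows of Rpl41 and had 3168 and 2974 counts. BC004004 shares 31.1% of those of Rpl21 and had 2346 and 2310 counts, against 6828 and 6447 for Rpl21 itself. Uimc1 shares 59.7% of those of Rpl29 and had 764 and 781 counts, and Med21 shares 23.7% of those of Rps26 and had 871 and 859. Rows with fewer counts were Tlcd1 (525 and 508), Gm5148, which matches Rps23 (229 and 240), Wdr89, which matches Rplp2 (225 and 213), and Fam69a (194 and 185). No core gene was exceeded by a row that shares 10% or more of its windows. Whether reads of these rows came from the ribosomal protein genes was not tested.

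Between the libraries the members differed little. For each of the 13336 genes kept by the filter on low counts, the counts were set against the scaled library sizes in an exact binomial test (two-sided), with Benjamini-Hochberg adjustment over all of them. The test covers counting error only and compares these 2 libraries. Of 83 members tested, 25 passed an adjusted p of 0.05 (30.1%), against 8.13% of all genes tested. In 21 the level was higher in replicate 2 (25.3%, against 3.67% of all genes), and in 4 it was lower (4.82%, against 4.46%). With total counts in place of TMM, 22 members passed (against 9.71% of all genes), 15 of them higher (2.8% of all genes) and 7 lower (6.91%). Members have many counts, and among the 776 other genes between the quartiles of the core's CPM 34.9% passed, 11% higher and 24% lower. Of the 37 members in that range 32.4% passed, 29.7% higher and 2.7% lower. The share that passed was thus near that of other genes with as many counts. More of the members were higher in replicate 2 and more of the other genes lower, and this difference in direction was not tested.

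The largest difference among the members that passed was that of Rps21, with 2308 and 2534 counts, a log2 ratio of replicate 2 to replicate 1 of 0.21 (exact binomial test, adjusted p = 3.92e-05). Rpl35a followed with 0.18 (exact binomial test, adjusted p = 7.73e-04), Rps15a with 0.16 (4.08e-09) and Rps27a, which encodes ubiquitin fused to a small subunit protein, with 0.14 (1.72e-06). Rps12 had 0.12 (8.61e-09) and Rpl38 0.11 (0.0213). Of the 4 lower members, Rpl26 had -0.18 (exact binomial test, adjusted p = 0.00341), Rpl4 -0.09 (1.38e-12), Rps7 -0.07 (0.00117) and Rpl6 -0.06 (0.00398). With edgeR's exact test, which adds a spread between libraries of 3.12% (coefficient of variation), no member passed, and 0.142% of all genes did. That spread was estimated from the difference between the same 2 libraries, so few calls can pass by construction, and the count of 0 says nothing on whether members differ. Without adjustment, 5 of the 83 members and 736 of the 13336 genes had a p under 0.05 in that test.

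The median log2 ratio over the 83 members was 0.03, against -0.0016 over all tested genes. Other genes as short as the members, between 521.5 and 960.5 bases, had a median of 0.03 (n = 943), and other genes with a like CPM had -0.02 (n = 776). The shift of the members was thus also seen in other short genes.

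**Figure D5:**
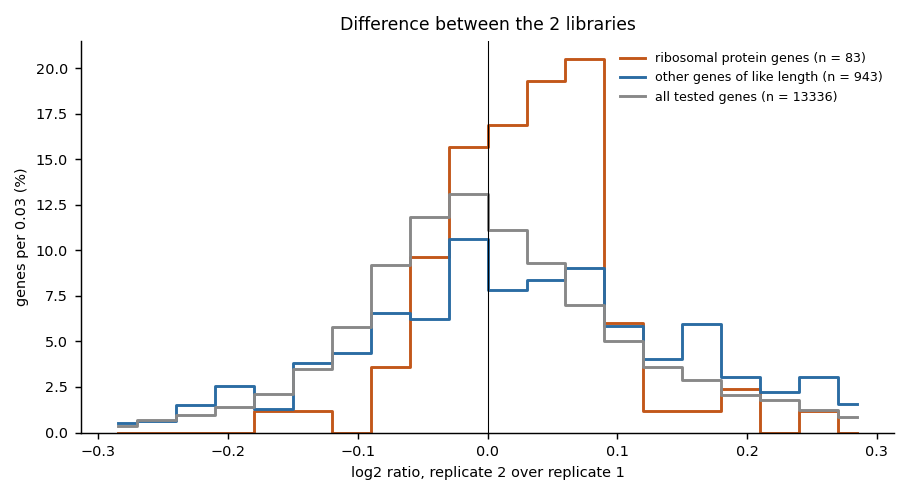
Distribution of the log2 ratio of replicate 2 to replicate 1 (share of genes in %, per 0.03) for the 83 members tested (orange), 943 other genes of like length (blue) and all 13336 tested genes (grey), between -0.3 and 0.3. All members lie within this range, with a median of 0.03, while 103 genes of like length and 814 of all genes lie outside it.

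The machinery that makes ribosomes was largely detected, mostly below the core genes in level. All 10 genes of the RNA polymerase I list, which transcribes ribosomal RNA, were detected. The highest was Taf1d (1540.1 ± 74.5 TPM), a gene that also hosts small nucleolar RNAs, followed by Ubtf (133 ± 3.17 TPM), Rrn3 (81.3 ± 5.15 TPM) and Polr1c (50.8 ± 0.59 TPM), and the lowest were Polr1e (12.1 ± 0.61 TPM) and Taf1c (11.7 ± 0.56 TPM). All 26 nucleolar assembly factors were detected, led by Npm1 (970.0 ± 14.3 TPM), Ncl (201 ± 1.33 TPM), Nop58 (169 ± 3.65 TPM) and Nop56 (164 ± 1.54 TPM), with Utp14a (20.2 TPM) and Mdn1 (12.9 TPM) lowest. The median of core genes exceeded that of assembly factors by 3.60 ± 0.04 on the scale of log2(TPM + 1) (SD, n = 2), or by 2.11 on counts not divided by length. Of the core genes, 36 of 77 were above Npm1. Npm1 was above Ncl only after division by length: Ncl had 24107 and 22918 counts, against 22852 and 22393 for Npm1.

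Of 11 chaperones and late factors that escort ribosomal proteins, 10 were detected. The highest were the histone chaperone Nap1l1 (377 ± 8.10 TPM), Aamp (112 ± 1.86 TPM), Bccip (99.0 ± 4.16 TPM), which escorts RPL23, and Heatr3 (48.7 ± 1.74 TPM), which helps to import RPL5. Tsr2, the escort of RPS26, was at 12.2 ± 0.49 TPM. Pdcd2, the escort of RPS2, had 0 counts in both libraries, while its target Rps2 had 18032 and 16657.

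All 11 regulators of ribosomal protein mRNA translation were detected. Cnbp, which binds TOP mRNAs, was highest (340.2 ± 0.84 TPM), followed by Eif4ebp2 (284 ± 14.2 TPM), a repressor of cap-dependent translation. Next were Larp1 (136 ± 1.02 TPM), whose protein binds TOP tracts, and Larp4 (74.0 ± 0.10 TPM). Rps6kb2 (16.7 ± 0.76 TPM) and Mtor (14.3 ± 1.05 TPM) were lowest. The 4 genes of the p53 arm that senses free RPL5 and RPL11 were detected as well, with the cell cycle inhibitor Cdkn1a at 366 ± 13.9 TPM, Trp53 at 206 ± 5.38 TPM, Mdm2 at 97.9 ± 1.34 TPM and Mdm4 at 91.4 ± 6.28 TPM. Rpl5 was above all 4, and Rpl11 was between Cdkn1a and Trp53.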

How the data were processed

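Counts per gene symbol in 2 libraries were used as deposited by the authors; they are raw counts. The submitters' processing notes list the build mm10 and the tools STAR 2.7.9a, featureCounts, FastQC 0.11.9, Cell Ranger 3.0.0 and R 4.1.1 without saying what each did. How multiply matching reads and strand were handled, and which annotation release was used, is not given in the sources used here, so reads shared with copies or overlapping genes may be lost, split or doubled. A stranded mRNA kit was used, per the labels' protocols.

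Members and lists were chosen with earlier results of these data known. Counts were scaled with TMM factors of 1.005 and 0.995 (edgeR 4.0.16, R 4.3.3). For TPM, symbols were matched to GENCODE M21 (GRCm38; 30413 of 31017 rows). Windows were looked up in transcripts on both strands; the genome itself was not searched. Promoters came from RefSeq (GRCm38.p6). No replicated comparison exists, so the quasi-likelihood test had no residual degrees of freedom. The filter was filterByExpr (13336 genes, 99.95% of counts). On simulated libraries with a coefficient of variation of 0.03, the binomial test called 100% of 100 genes changed 1.5-fold and of 100 changed 2-fold. With counting noise alone it called 0 of 13336. Differences of called members were smaller, up to a log2 ratio of 0.205. Calls of unchanged genes at 0.03 were not counted, so the simulation does not say how many calls come from spread between libraries. The real libraries had a chi-square of 6.40 per degree of freedom, so they differ by more than counting noise.

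Named genes were the 8 highest and 8 lowest core genes of each subunit by TPM, all members outside the core, the 6 largest differences each way between libraries, core genes with over 90% of windows shared, the 10 rows with most counts sharing windows with a member, Fau, Rack1, and the 4 highest and 2 lowest of each other list. A few genes under this rule are not reported here. Others named with values were chosen for their role or after their values were seen. Alternatives covered scaling, filters, pseudocounts, lengths, window sizes, DESeq2 1.42.0 size factors and each library alone. The reads have no molecular identifiers. Intervals and floors (3 counts) therefore cover counting error only.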

Additional observations from a re-analysis of the deposited data

How the results depend on the processing

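Levels of single genes rest on 2 libraries and on annotated lengths. Each library alone gave a median of log2(CPM + 1) over members of 7.83 to 7.85, 82 to 83 members detected, a share of counts of 2.41 to 2.42%, a difference of large minus small subunit of -0.06 to -0.04 and of core genes minus assembly factors of 3.57 to 3.63. The median level was 7.87 with a pseudocount of 5, 8.99 per union of exons, 11.1 per window not shared and 8.09 over core genes alone; the length-divided values are on another scale. Large minus small subunit turned positive with the union of exons (0.0100), without division by length (0.33) and with under 50% of windows shared (0.12). It was -0.14 per window not shared, -0.21 per coding length and -0.0172 without the gene overlapped on the same strand. Core genes minus assembly factors was 2.999 with the union of exons and 2.11 without division by length. The share of counts was 2.699% without Gm26917 and Gm42418 in the total. Members that passed between libraries numbered 0 with edgeR's exact test, whose spread was fitted from the same 2 libraries, and 22 to 25 under the other settings. Core genes with over 50% of windows shared numbered 51, 47 when only other loci count, and 24 with 150-base windows. By any shared window, 2 core genes (Rps20 and Rps16, each through under 10% of windows) were exceeded by another row, and by rows annotated as pseudogenes 0. Core genes alone, coding lengths, 150-base windows, other loci only, the overlap and the total without Gm26917 and Gm42418 were chosen after seeing the data. A window search of the genome and scaling alternatives for TPM, which rescales each library, were not run. No paired analysis was possible because there is 1 group.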
